A study of Mus musculus with 12 samples.

Results

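Collagen genes encode the chains of the main structural proteins of the extracellular matrix, and 36 of them were followed in embryonic mouse pancreas that had lost β-catenin. They are a fixed list of Col genes named on the array, chosen with earlier results of these data known. The genes were grouped by the kind of structure their chains build, and are read by 69 of the 45037 probe sets tested. They fall into 7 types: 6 fibrillar genes, 3 beaded filament genes, 4 genes of the fibril-associated group known as FACIT, 2 short chain genes, 4 transmembrane genes, 9 basement membrane genes and 8 genes known from cartilage.

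The data are 12 Affymetrix MOE430 2.0 arrays, each from the pancreas of 1 embryo. At each of 2 days there were 4 β-catenin knockout pancreata (KO, Pdx1Cre/+; beta-catenin flox/flox) and 2 wildtype pancreata (WT). The days were E14.5 and E16.5, although the deposited design text gives the first as E14.6. Embryos of both genotypes came from timed matings of Pdx1Cre/+; beta-catenin flox/+ mice, and the sex of the embryos and whether a WT embryo carried the Cre are not given in the sources used here. Pdx1-Cre deletes the gene in pancreatic epithelium, probably in a mosaic manner, and the mesenchyme around it is not a target of this Cre. Each pancreas was read whole, so the tissue holds epithelium, mesenchyme, vessels and nerves together, and in such bulk RNA fewer cells of a type and less RNA per cell cannot be told apart.

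Collagen chains wind in groups of 3 into a triple helix. Fibrillar chains (types I, III and V) assemble into the cross-striated fibrils of connective tissue, whereas type IV chains form the flat network of the basement membrane on which epithelium and endothelium rest. Type VI forms beaded filaments between fibrils and cells, and FACIT collagens sit on the surface of fibrils. Fibroblasts and other mesenchymal cells are the usual source of fibrillar chains, and epithelium, endothelium and muscle each lay down basement membrane.

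Each value is the authors' ratio of a probe set's signal to the mean of the WT arrays of the same day, so the WT pair of a day averages 1 on every probe set. Such ratios hold neither the level of a gene nor its course between days, and a ratio near 1 can also come from a gene that gave no signal. KO values run in the order KO_540C, KO_540G, KO_615A, KO_615B at E14.5 and KO_541J, KO_541L, KO_591C, KO_591D at E16.5, and WT values in the order WT_522B, WT_522C and WT_622A, WT_628G. Fold changes are log2(KO) minus log2(WT) with the standard error, and adjusted p is that of limma with Benjamini-Hochberg over all 45037 probe sets, with 0.05 as the limit.

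No marker of pancreas can be shown as present from ratios alone. Ctnnb1, the targeted gene, has 3 probe sets, none of which passed the limit on either day. On 1430533_a_at the ratios were 0.670, 0.709, 0.662 and 0.672 in KO at E16.5, against 1.27 and 0.731 in WT (-0.51 ± 0.17, adjusted p = 0.152), all 4 KO pancreata below both WT pancreata. At E14.5 it lay the other way, at 1.11, 1.29, 1.31 and 1.14 in KO and 0.972 and 1.03 in WT (0.27 ± 0.17). On 1420811_a_at and 1450008_a_at every KO pancreas lay below both WT pancreata at E14.5 (-0.14 and -0.26), and at E16.5 the groups overlapped. The loxP sites lie in the second and the sixth intron, and where the probes lie relative to them is not given in the sources used here, so these values do not check the labels. Over all probe sets 1182 passed the limit at E16.5 and 5 at E14.5. With 1 KO array left out these counts ranged from 404 (without KO_541J) to 2862 (without KO_591D) at E16.5. At E14.5 they ranged from 2 (without KO_615B) to 19 (without KO_615A). The methods' t-test with Benjamini-Hochberg over all probe sets gave 0 on each day. The paper adjusted only over probe sets that had first passed a filter on their ratios, so its own procedure was not repeated here.

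At E14.5 none of the 69 collagen probe sets passed the limit, beside 0.0111% of all probe sets in either direction. By limma 16 of them had an unadjusted p under 0.05, beside 6.86% of all probe sets, and 14 of these were higher in KO, beside 2.34%. The methods' t-test gave 14 without correction, beside 5.04%, of which 12 were higher in KO, beside 2.68%, and 0 after Benjamini-Hochberg. At E16.5, 7 probe sets of 6 collagen genes passed, all higher in KO, which is 10.1% of the 69 beside 0.802% of all probe sets higher in KO. None passed in the other direction, where 1.82% of all probe sets did and where limma gave 2 collagen probe sets with an unadjusted p under 0.05 (beside 8.16% of all) and the methods' t-test 1 without correction (beside 6.32%) and 0 with it. Several probe sets read the same gene, so the 69 are not independent: 23 of the genes have more than 1.

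The positions of the single arrays showed the same tilt. All 4 KO pancreata lay above both WT pancreata on 17 collagen probe sets at E14.5 (24.6%, beside 8.17% of all probe sets) and on 23 at E16.5 (33.3%, beside 14.5%). All 4 lay below both WT on 4 at E14.5 (5.8%, beside 8.06%) and on 2 at E16.5 (2.9%, beside 11.1%). With 1 probe set per gene, chosen by its name alone, 22 of the 36 genes had a KO mean above the WT mean on both days, beside 33.3% of all 18193 genes. For 4 of them, Col5a1, Col5a2, Col6a2 and Col13a1, all 4 KO pancreata lay above both WT pancreata on both days, beside 2.15% of all genes.

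**Figure D1:**
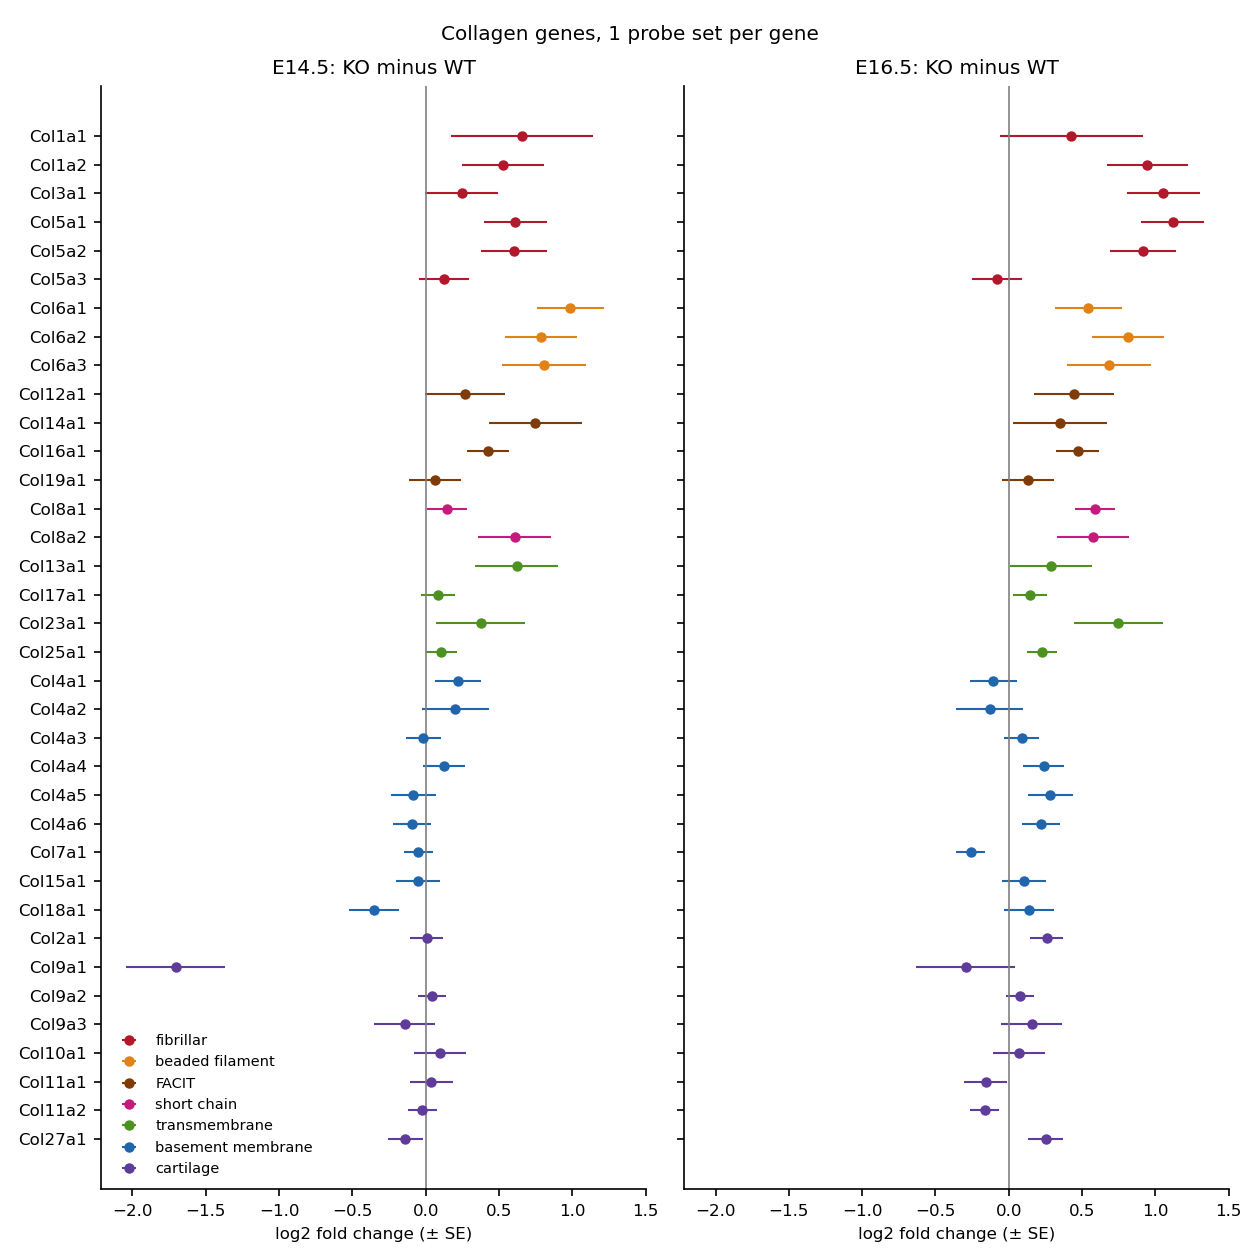
Log2 fold change (KO minus WT, x axis) with its standard error for each of the 36 collagen genes (rows, 1 probe set each, coloured by type) at E14.5 (left) and E16.5 (right). Fibrillar and beaded filament genes lie mostly right of 0 on both days, with fibrillar medians of 0.56 on the earlier day and 0.93 on the later one, while basement membrane and cartilage genes lie around 0 except Col9a1 at E14.5 (-1.71).

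Fibrillar collagens were the type with most calls. Of 6 genes, 4 had a probe set past the limit at E16.5, all higher in KO: Col1a2, Col3a1, Col5a1 and Col5a2. These calls were 4 of 14 fibrillar probe sets, beside 0.802% of all probe sets higher in KO. On the 1 probe set per gene chosen by name, 2 of the 6 genes passed, Col3a1 and Col5a1. The median over the 6 genes uses these chosen probe sets. The median log2 fold change over the 6 genes was 0.93 at E16.5 and 0.56 at E14.5, beside 0.03 and 0.02 over all probe sets. Over all 14 fibrillar probe sets it was 0.54 and 0.49, and with quantile normalization 0.57 and 0.50, so the gap between the days was smaller with either choice. Col1a1, the main chain of type I collagen, and Col5a3, a rarer type V chain, did not pass on any probe set.

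Col5a1 (chr2:27886381-28039510, GRCm38.p6) encodes the type V chain that sets off fibril assembly. Its ratios on 1416740_at were 2.58, 2.89, 1.99 and 1.49 in KO at E16.5, against 0.975 and 1.02 in WT (1.12 ± 0.21, adjusted p = 0.0229). All 4 KO pancreata stood above both WT pancreata, KO_591D the lowest of them. At E14.5 the same probe set read 1.49, 1.72, 1.34 and 1.58 in KO and 1.05 and 0.947 in WT, again without overlap but short of the limit (0.61 ± 0.21, adjusted p = 0.629). The other 2 probe sets of the gene did not follow it, with 0.16 ± 0.12 on 1416741_at and 0.39 ± 0.20 on 1434479_at at E16.5, neither past the limit.

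Col5a2, the partner chain of Col5a1, lies 24.6 kb from Col3a1 on chromosome 1 (GRCm38.p6). On 1450625_at it read 2.13, 3.28, 1.89 and 1.48 in KO at E16.5, against 0.905 and 1.10 in WT (1.08 ± 0.24, adjusted p = 0.0427). Its other probe set, 1422437_at, read 2.22, 2.65, 1.58 and 1.34 in KO and 0.945 and 1.06 in WT and fell just short (adjusted p = 0.0565). Both probe sets thus kept the KO pancreata apart from WT at E16.5. At E14.5 only 1422437_at did so, with 1.42, 1.51, 1.47 and 1.65 in KO and 1.11 and 0.886 in WT (0.60 ± 0.23, adjusted p = 0.645).

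Col3a1, the single chain of type III collagen that accompanies type I in soft tissue, read 2.14, 2.99, 2.14 and 1.35 on 1427884_at in KO at E16.5, against 1.08 and 0.924 in WT (1.06 ± 0.25, adjusted p = 0.0488). KO_541L reached the highest ratio and KO_591D the lowest, and no KO value fell within the WT range. At E14.5 the ratios were 1.47, 1.05, 1.02 and 1.25 in KO and 1.06 and 0.943 in WT, with overlap. The second probe set, 1427883_a_at, showed smaller differences of 0.38 ± 0.17 at E16.5 and 0.52 ± 0.17 at E14.5 and passed on neither day (adjusted p = 0.278 and 0.586).

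Col1a2, the second chain of type I collagen, passed on 1450857_a_at. It read 2.18, 2.14, 1.54 and 1.41 in KO at E16.5, against 1.03 and 0.969 in WT (0.84 ± 0.17, adjusted p = 0.0304). On this probe set the KO pancreata fell into a higher pair from KO_541J and KO_541L and a lower pair from KO_591C and KO_591D. At E14.5 the probe set read 1.48, 1.48, 1.20 and 1.39 in KO and 0.965 and 1.04 in WT (0.47 ± 0.17, adjusted p = 0.641). The probe sets 1423110_at and 1446326_at gave 0.95 ± 0.28 and 0.65 ± 0.48 at E16.5 and did not pass.

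Col1a1 pairs with Col1a2 in the type I molecule, and among the chosen fibrillar probe sets its values had the largest standard error. On 1423669_at they were 1.50, 2.64, 0.973 and 0.612 in KO at E16.5, against 1.39 and 0.612 in WT, so the WT pair lay within the range of the KO pancreata (0.43 ± 0.49, adjusted p = 0.757). Without WT_628G the estimate turned to -0.16. At E14.5 its other probe set, 1455494_at, gave the largest log2 fold change of the type on that day, with 1.77, 2.42, 1.57 and 2.19 in KO and 1.15 and 0.852 in WT (0.98 ± 0.26, adjusted p = 0.519). Col5a3 stayed near 0 on both probe sets, from -0.17 to 0.13 at E14.5 and from -0.080 to 0.086 at E16.5.

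**Figure D2:**
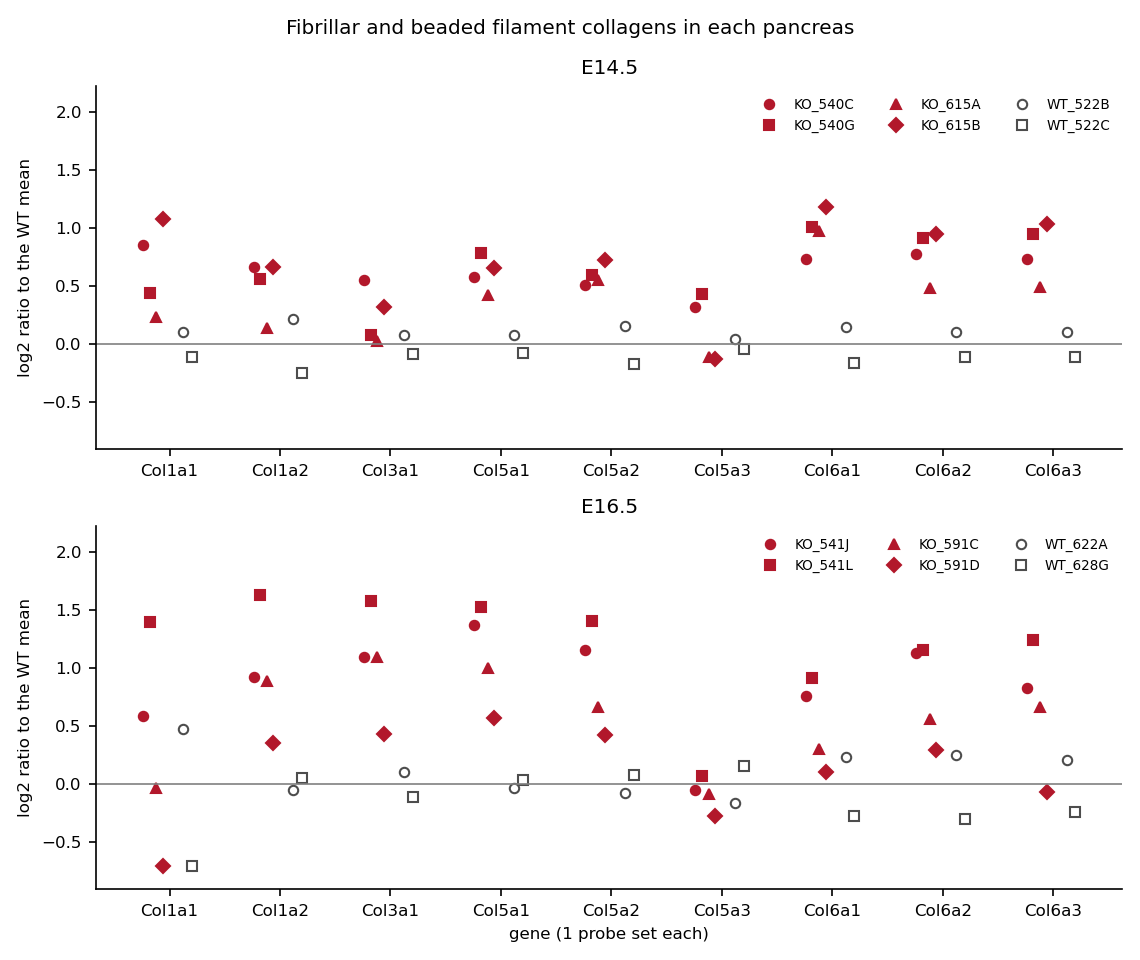
Log2 ratio to the WT mean of the day (y axis) for 6 fibrillar and 3 beaded filament genes (x axis, 1 probe set each) at E14.5 (top) and E16.5 (bottom), with filled symbols for the 4 KO pancreata and open symbols for the 2 WT pancreata. At E16.5 KO_541L was the highest and KO_591D the lowest KO pancreas on all 6 fibrillar and all 3 beaded filament genes, and on Col1a1 the KO and WT pancreata overlapped.

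RefSeq promoter windows (GRCm38.p6) were found for 29 of the 36 genes. The 250 bases before the start of Col1a2 and Col3a1 are shown because both genes rose at E16.5 and yet these windows hold different motifs. Capitals mark 3 motifs that many promoters share. One is the GC box, with the letters GGGCGG. Another, the CCAAT box, is named for its own letters. The last is the TATA box, searched here as TATAAA. Each was looked for on both strands, so a capital stretch may hold the reverse complement. The windows are chr6:4505368-4505617, plus strand, for Col1a2 and chr1:45311288-45311537, plus strand, for Col3a1.
Col1a2: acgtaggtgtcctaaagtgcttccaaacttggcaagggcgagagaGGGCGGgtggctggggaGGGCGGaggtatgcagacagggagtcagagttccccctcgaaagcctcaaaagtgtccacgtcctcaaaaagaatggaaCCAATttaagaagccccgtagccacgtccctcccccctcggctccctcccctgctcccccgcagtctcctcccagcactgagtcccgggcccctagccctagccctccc
Col3a1: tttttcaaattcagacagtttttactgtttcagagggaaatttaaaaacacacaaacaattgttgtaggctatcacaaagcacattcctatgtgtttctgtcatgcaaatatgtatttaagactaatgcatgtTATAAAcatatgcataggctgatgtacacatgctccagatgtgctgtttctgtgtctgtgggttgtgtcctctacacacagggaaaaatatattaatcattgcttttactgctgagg
The Col1a2 window held a CCAAT box and 2 GC boxes, while the Col3a1 window held the TATA box letters alone, 117 to 112 bases before the start. Whether they act as a TATA box from there was not tested. Of all 32851 windows of this length 33.8% held a CCAAT box, 32.7% a GC box and 12.4% a TATA box. Among the 32 collagen windows these motifs stood in 37.5%, 59.4% and 15.6%. The letters CTTTGA, the core of the site bound by TCF/LEF factors, the DNA-binding partners of β-catenin, stood in 25% of collagen windows (8 of 32) beside 13.8% of all windows. It was in none of the windows of Col1a2, Col3a1, Col5a1, Col8a1 or Col25a1, the genes with a call at E16.5 that have a window, which says only that these letters are not in those 250 bases.

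The fibrillar calls rested on few arrays. With each of the 12 arrays left out in turn, Col5a1 stayed past the limit in 9 fits and lost its call without WT_622A (adjusted p = 0.118), WT_628G (0.0897) and KO_541J (0.062). Col1a2 stayed in 6 fits and lost its call without either array of each WT pair, KO_541J or KO_541L, with adjusted p up to 0.145. Col5a2 stayed in 3 fits, without KO_540G, KO_541L and KO_591D, and reached an adjusted p of up to 0.225 in the others. Col3a1 stayed in 1 fit, without KO_591D (adjusted p = 0.0047), and reached up to 0.227 in the other 11. The log2 fold change stayed between 0.74 and 1.30 in all of these fits for all 4 probe sets. Over all probe sets 2862 passed without KO_591D, against 1182 with all arrays. With KO_591D left out 13 collagen probe sets passed, including all 7, and with WT_622A left out none did.

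No beaded filament probe set passed, although all 4 had a KO mean above WT on both days. Type VI collagen is built from the chains of Col6a1, Col6a2 and Col6a3 and links fibrils to cells. The median log2 fold change of the 3 genes was 0.80 at E14.5 against 0.68 on the later day. All 4 of their probe sets, 2 of which read Col6a2, kept every KO pancreas above both WT pancreata at E14.5, beside 8.17% of all probe sets. Their unadjusted p by limma at E14.5 was under 0.05 on each, beside 2.34% of all probe sets that were higher in KO with such a p. The lowest adjusted p was 0.443.

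Col6a1 had the largest positive log2 fold change of the chosen probe sets at E14.5. It read 1.66, 2.02, 1.97 and 2.27 in KO and 1.11 and 0.893 in WT (0.99 ± 0.23, unadjusted p = 0.00104 by limma). At E16.5 it read 1.69, 1.89, 1.23 and 1.07 in KO and 1.17 and 0.827 in WT, where KO_591D fell within the WT range (0.54 ± 0.23, adjusted p = 0.252). Col6a1 thus kept its direction with less separation at the later day.

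Col6a2 was the member of the type that stayed apart on both days, on 1452250_a_at but not on 1426947_x_at. On 1452250_a_at it read 1.72, 1.89, 1.40 and 1.93 in KO and 1.08 and 0.924 in WT at E14.5 (0.79 ± 0.25, adjusted p = 0.573). At E16.5 it read 2.19, 2.22, 1.48 and 1.22 in KO and 1.19 and 0.811 in WT (0.81 ± 0.25, adjusted p = 0.112). The lowest KO value, from KO_591D, exceeded WT_622A by a small margin only. On 1426947_x_at the groups overlapped at E16.5, at 1.48, 1.84, 1.12 and 1.02 in KO and 1.27 and 0.729 in WT (0.46 ± 0.25). Col6a3, the largest of the chains, read 1.66, 1.93, 1.41 and 2.05 in KO and 1.07 and 0.926 in WT at E14.5, and 1.78, 2.36, 1.59 and 0.953 in KO and 1.15 and 0.845 in WT at E16.5 (0.80 ± 0.29 and 0.68 ± 0.29). KO_591D again lay inside the WT range at E16.5.

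Col8a1 gave the strongest call and the only one for a difference between the days. Type VIII collagen is a short chain, network-forming collagen known from vessel walls and the membrane under the corneal endothelium. On 1455627_at it read 2.61, 2.29, 2.60 and 1.86 in KO at E16.5, against 0.798 and 1.20 in WT (1.24 ± 0.21, adjusted p = 0.0135). At E14.5 the same probe set read 0.824, 0.512, 0.697 and 0.775 in KO and 1.04 and 0.965 in WT (-0.53 ± 0.21, adjusted p = 0.677). All 4 KO pancreata lay below both WT pancreata at E14.5 and above both at E16.5. The KO effect at E16.5 minus that at E14.5 was 1.78 ± 0.30 (adjusted p = 0.0344), and this was 1 of 69 collagen probe sets past the limit for the difference, beside 0.349% of all probe sets. Because the WT pair is set to 1 on each day, the difference is one of ratios and not of levels.

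The other Col8a1 probe sets had the same direction at E16.5 but did not lie below WT at E14.5. On 1418440_at the ratios were 1.79, 1.43, 1.32 and 1.50 in KO at E16.5, against 0.961 and 1.04 in WT (0.59 ± 0.14, adjusted p = 0.0477). On 1418441_at they were 1.36, 1.25, 1.29 and 1.28 in KO and 1.01 and 0.990 in WT (0.37 ± 0.14, adjusted p = 0.212). No KO value reached the WT range on either. At E14.5 the KO pancreata lay on both sides of 1, at 0.960, 1.10, 1.23 and 1.14 on 1418440_at, against 0.913 and 1.09 in WT, and at 0.854, 1.12, 1.12 and 0.767 on 1418441_at, against 1.02 and 0.983 in WT. The difference between days was 0.44 ± 0.19 and 0.44 ± 0.20 on these probe sets and did not pass (adjusted p = 0.465 and 0.488).

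The E16.5 call of 1455627_at was the one least moved by single arrays. It was lost only without WT_622A (log2 fold change 0.95, adjusted p = 0.11) among the 12 fits with 1 array left out. The call for the difference between days was lost in 8 of 12, without WT_622A, WT_522B, WT_522C, KO_541J, KO_541L, KO_591C, KO_615A or KO_615B, with adjusted p of up to 0.207 and a difference between 1.48 and 2.07. The call of 1418440_at was lost in 9 of 12, with adjusted p of up to 0.229, and stayed without KO_540C, KO_591C or KO_591D.

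**Figure D3:**
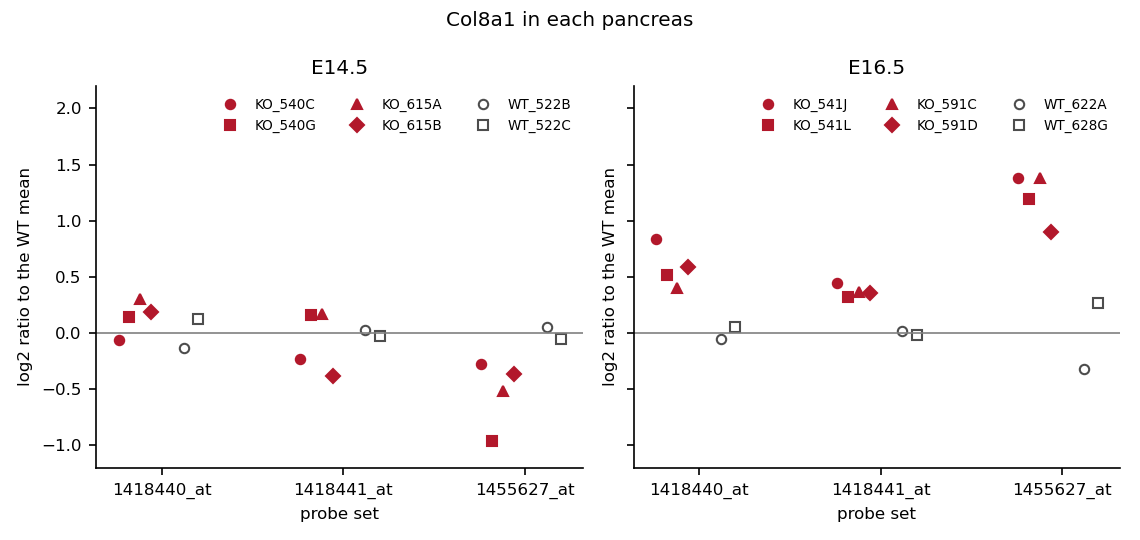
Log2 ratio to the WT mean of the day (y axis) on the 3 Col8a1 probe sets (x axis) at E14.5 (left) and E16.5 (right), with filled symbols for KO and open symbols for WT pancreata. On 1455627_at the KO pancreata lie below WT at E14.5 and above WT at E16.5, while the other probe sets are above WT only at E16.5.

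The 250 bases before the Col8a1 start (chr16:57754738-57754987, minus strand) are shown for the 4 GC boxes they hold, all on the reverse strand and marked in capitals, and hold none of the other 3 motifs.
Col8a1: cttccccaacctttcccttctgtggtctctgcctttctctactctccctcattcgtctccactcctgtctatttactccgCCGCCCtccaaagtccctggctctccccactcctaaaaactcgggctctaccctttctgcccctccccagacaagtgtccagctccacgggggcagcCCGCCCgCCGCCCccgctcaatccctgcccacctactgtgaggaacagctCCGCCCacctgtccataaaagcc
The partner chain Col8a2 has 1 probe set, 1434667_at. It read 1.48, 1.36, 1.27 and 2.09 in KO and 0.937 and 1.06 in WT at E14.5 (0.61 ± 0.25, adjusted p = 0.677), and 1.59, 1.90, 1.17 and 1.24 in KO and 1.23 and 0.766 in WT at E16.5 (0.58 ± 0.25, adjusted p = 0.267). Unlike Col8a1 on 1455627_at, Col8a2 had KO ratios above 1 on both days.

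Among transmembrane collagens 1 probe set passed. Col25a1 (chr3:130180358-130599884), a neuronal membrane collagen whose shed ectodomain is known from amyloid plaques, read 2.04, 1.99, 1.72 and 1.29 on 1438540_at in KO at E16.5, against 1.05 and 0.954 in WT (0.79 ± 0.19, adjusted p = 0.0491). Its call was lost in 10 of 12 fits with 1 array left out, with adjusted p of up to 0.217, and stayed without KO_540G or KO_591D. The other probe set, 1421427_at, differed less, at 1.14, 1.14, 1.13 and 1.27 in KO and 0.997 and 1.003 in WT (adjusted p = 0.306). Of the neural markers listed for Schwann cells and neurons, 2 of 6 measured genes also passed at E16.5, beside 0.802% of all probe sets higher in KO. Both were higher in KO: Nefl, a neurofilament chain (2.91 ± 0.69), and Elavl4, a neuronal RNA-binding protein (0.88 ± 0.20). Their part in the Col25a1 result was not tested.

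Col13a1, a collagen of cell junctions and the neuromuscular synapse, stayed above WT in every KO pancreas on both days but did not pass. It read 2.63, 1.22, 1.08 and 1.59 in KO and 1.04 and 0.958 in WT at E14.5, with KO_540C far above the rest, and 1.04, 1.52, 1.13 and 1.23 in KO and 1.04 and 0.964 in WT at E16.5 (adjusted p = 0.726 and 0.707). At E16.5 KO_541J exceeded WT_622A by a small margin only. Col23a1 had its largest difference on 1440911_at, with 2.73, 4.07, 2.29 and 1.41 in KO and 0.983 and 1.02 in WT at E16.5 (1.29 ± 0.35, adjusted p = 0.0756). This was the largest log2 fold change, in either direction, of all collagen probe sets at E16.5, although it missed the limit. Col17a1, the hemidesmosome collagen of surface epithelia, differed by 0.083 ± 0.11 at E14.5 and 0.14 ± 0.11 at E16.5.

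No FACIT probe set passed. Col14a1, which binds to fibrils in soft tissue, gave the largest positive log2 fold change of all collagen probe sets at E14.5 on 1427168_a_at, with 2.11, 2.31, 1.90 and 2.18 in KO and 1.34 and 0.658 in WT (1.18 ± 0.42, adjusted p = 0.637). Its probe set 1428455_at had the same direction (0.75 ± 0.32), and 1453931_at did not differ beyond its error (0.043 ± 0.11). Col16a1 read 1.49, 1.41, 1.33 and 1.28 in KO and 1.11 and 0.890 in WT at E16.5 (0.47 ± 0.14, adjusted p = 0.115), with no overlap. Col12a1 and Col19a1 ranged from -0.23 to 0.45 over their probe sets at E16.5. Col8a2, Col14a1, Col16a1, Col23a1 and Col27a1 fall outside the rule for named genes and are described because of their values. Other genes outside it are named only so that all 36 are accounted for.

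Basement membrane collagens lay around 0. Over the 9 genes the median log2 fold change was -0.050 on the earlier day and 0.11 on the later one, and none of 16 probe sets passed on either day. The genes differed in direction: 3 had a KO mean above WT at E14.5 and 6 at E16.5.

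Col4a1 and Col4a2 make the type IV network found in nearly all basement membranes and are read from opposite strands of 1 locus on chromosome 8, where RefSeq lets the genes overlap by 85 bases. Col4a1 read 1.10, 1.08, 1.26 and 1.23 in KO and 1.01 and 0.992 in WT at E14.5, and 0.860, 1.13, 0.898 and 0.808 in KO and 1.18 and 0.825 in WT at E16.5 (0.22 ± 0.16 and -0.10 ± 0.16). Col4a2 read 1.19, 0.858, 1.25 and 1.34 in KO and 0.898 and 1.10 in WT at E14.5, and 0.856, 1.24, 0.837 and 0.740 in KO and 1.17 and 0.834 in WT at E16.5 (0.20 ± 0.23 and -0.13 ± 0.23). KO_541L was the only KO pancreas above 1 on both genes at E16.5, while WT_622A was above 1 and WT_628G below 1 on both. Without WT_622A the E16.5 estimates turned to 0.15 for Col4a1 and 0.11 for Col4a2. The minor chains Col4a3 to Col4a6, known from kidney and other specialised membranes, ranged from -0.57 to 0.23 over 9 probe sets at E14.5 and from -0.33 to 0.28 at E16.5, and Col15a1 differed by -0.053 and 0.11.

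Col18a1, the source of endostatin, was among the lowest chosen probe sets at E14.5. On 1426955_at it read 0.816, 0.641, 0.918 and 0.778 in KO and 0.919 and 1.08 in WT (-0.35 ± 0.17, adjusted p = 0.745), with every KO pancreas below both WT pancreata. On 1418237_s_at the groups overlapped at E14.5, at 0.820, 0.651, 1.01 and 1.03 in KO and 1.05 and 0.953 in WT (-0.21 ± 0.22). At E16.5 1426955_at read 0.999, 1.33, 1.06 and 0.995 in KO and 1.14 and 0.858 in WT (0.14 ± 0.17), and without WT_628G this estimate turned to -0.070. Col7a1, which forms the anchoring fibrils under skin epithelium, read 0.883, 0.883, 0.757 and 0.822 in KO at E16.5, against 0.948 and 1.05 in WT (-0.26 ± 0.10, adjusted p = 0.210). It was the only chosen probe set of a collagen gene on which all 4 KO pancreata lay below both WT pancreata at E16.5.

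Cartilage collagens are listed because their genes are on the array, not because cartilage belongs to the pancreas. Over 8 genes the median log2 fold change was -0.0079 at E14.5, with 0.071 on the later day, and no probe set passed. Col2a1, the main fibril of cartilage, read 0.920, 1.09, 1.04 and 0.985 in KO and 1.03 and 0.974 in WT at E14.5, and 1.14, 1.18, 1.10 and 1.38 in KO and 0.948 and 1.05 in WT at E16.5 (0.26 ± 0.11, adjusted p = 0.263). The E14.5 estimate was 0.0074 and had no stable sign. Col9a3, a type IX chain, read 1.09, 0.724, 0.945 and 0.866 in KO and 1.14 and 0.857 in WT at E14.5, and 1.25, 1.26, 1.18 and 0.810 in KO and 1.09 and 0.914 in WT at E16.5, with overlap on both days. Its probe set 1420280_x_at had every KO pancreas below both WT pancreata at E14.5, at 0.817, 0.919, 0.858 and 0.883 in KO and 1.03 and 0.972 in WT (-0.20 ± 0.095, adjusted p = 0.734), and 1460693_a_at overlapped (-0.41 ± 0.36). Col11a2, a type XI chain found inside cartilage fibrils, read 0.995, 0.819, 0.949 and 0.818 in KO at E16.5, against 0.985 and 1.02 in WT (-0.16 ± 0.10), and differed by -0.023 at E14.5. The remaining cartilage genes, Col9a2, Col10a1, Col11a1 and Col27a1, lay between -0.19 and 0.097 over 6 probe sets at E14.5 and between -0.16 and 0.44 at E16.5. Of these Col27a1 had every KO pancreas above both WT pancreata at E16.5 on both of its probe sets (0.25 and 0.37, adjusted p = 0.326 and 0.232).

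Col9a1 stood apart within the type. It encodes a type IX chain that decorates type II fibrils. On 1428571_at it read 0.387, 0.174, 0.480 and 0.272 in KO at E14.5, against 0.953 and 1.05 in WT (-1.71 ± 0.34, adjusted p = 0.338). No KO pancreas was above 0.480 of the WT mean, and the difference was the largest of all 69 probe sets in size, but it did not pass when adjusted over all probe sets. It passed with quantile normalization and with array weights. At E16.5 it read 0.870, 1.003, 0.909 and 0.553 in KO and 1.06 and 0.940 in WT (-0.29 ± 0.34), and the difference between days did not pass (1.41 ± 0.48, adjusted p = 0.299). The second probe set, 1421381_a_at, differed by -0.064 ± 0.15 at E14.5 with KO pancreata on both sides of WT.

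Markers of cartilage were checked beside these genes. At E14.5 the 14 markers had a median log2 fold change of -0.047 and none passed. Those with every KO pancreas below both WT pancreata were 4, beside 8.06% of all probe sets. They were Mia (-0.99 ± 0.24), Acan (-0.64 ± 0.19), Sox9 (-0.61 ± 0.17), a factor that pancreatic progenitors also express, and Matn4 (-0.20). The cartilage matrix genes Matn1, Matn3, Hapln1 and Comp lay between -0.19 and 0.10. Over all 14 markers 9 had a KO mean below WT and 5 above, from -0.99 to 0.55. Whether these genes gave signal at all cannot be read from ratios, and their part in the Col9a1 result was not tested.

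The KO pancreata of E16.5 were not alike, and fibrillar genes shared their highest and their lowest pancreas. Over the 6 fibrillar genes the median log2 ratio was 1.01, 1.47, 0.77 and 0.39 in KO and -0.043 and 0.042 in WT. KO_541L was the highest KO pancreas on 21 of the 36 collagen genes (58.3%, beside 20.5% of all probe sets), and KO_591D the lowest on 21 (58.3%, beside 24.4%). At E14.5 the fibrillar median was 0.57, 0.50, 0.18 and 0.66 in KO and 0.091 and -0.097 in WT, with KO_615A the lowest KO pancreas.

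Markers of some other cell types moved with the E16.5 order of the fibrillar medians, acinar markers in the opposite direction. Others did not: mesenchyme and skeletal muscle medians were lowest in KO_591C (0.13 and -0.14). Acinar markers had a median log2 ratio of -2.54, -2.65, -1.78 and -1.26 in KO and -0.014 and 0.013 in WT at E16.5, so that the 2 pancreata with the lowest acinar medians had the highest fibrillar medians. All 6 measured acinar genes lay below both WT pancreata in every KO pancreas, beside 11.1% of all probe sets. Of these genes 4 passed, beside 1.82% of all probe sets lower in KO. They were led by Klk1, a kallikrein (-4.62 ± 0.28), and Cel, the bile salt lipase (-2.97 ± 0.67). Epithelium markers had medians of -1.08, -0.94, -0.36 and -0.17 in KO and 0.34 and -0.45 in WT. At E14.5 the acinar medians were -0.23, -0.058, 0.36 and -0.93 in KO and -0.073 and 0.066 in WT, without a common direction against WT. Among the KO pancreata they again ran opposite to the fibrillar medians. KO_615B had the lowest acinar and the highest fibrillar median (0.66), and KO_615A the highest acinar and the lowest fibrillar median (0.18). How much of the collagen differences goes with the share of acinar cells was not tested.

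Mesenchyme markers stand for the cells that usually make fibrillar collagen. Their median log2 ratio over 10 genes was 0.50, 0.65, 0.13 and 0.24 in KO and -0.0042 and 0.0040 in WT at E16.5. Of the 10, 1 passed, beside 0.802% of all probe sets higher in KO: Thy1, a surface protein of fibroblasts and neurons (0.80 ± 0.15). Postn, Twist2 and Vim differed by 1.06, 0.80 and 0.79 without passing, while Pdgfra, Pdgfrb, Twist1 and Nkx3-2 stayed between -0.034 and 0.12 on the probe set chosen by name. Ratios do not show which of these markers were at background, and their part in the collagen result was not tested. Endothelial markers had medians of 0.20, 0.52, 0.21 and 0.014 in KO and 0.015 and -0.015 in WT, and none of 8 passed, and KO_541L was the highest KO pancreas on all 8. Mesothelial markers were lowest in KO_591D on all 6 genes and had no call, and pericyte and smooth muscle markers and skeletal muscle markers had none either.

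**Figure D4:**
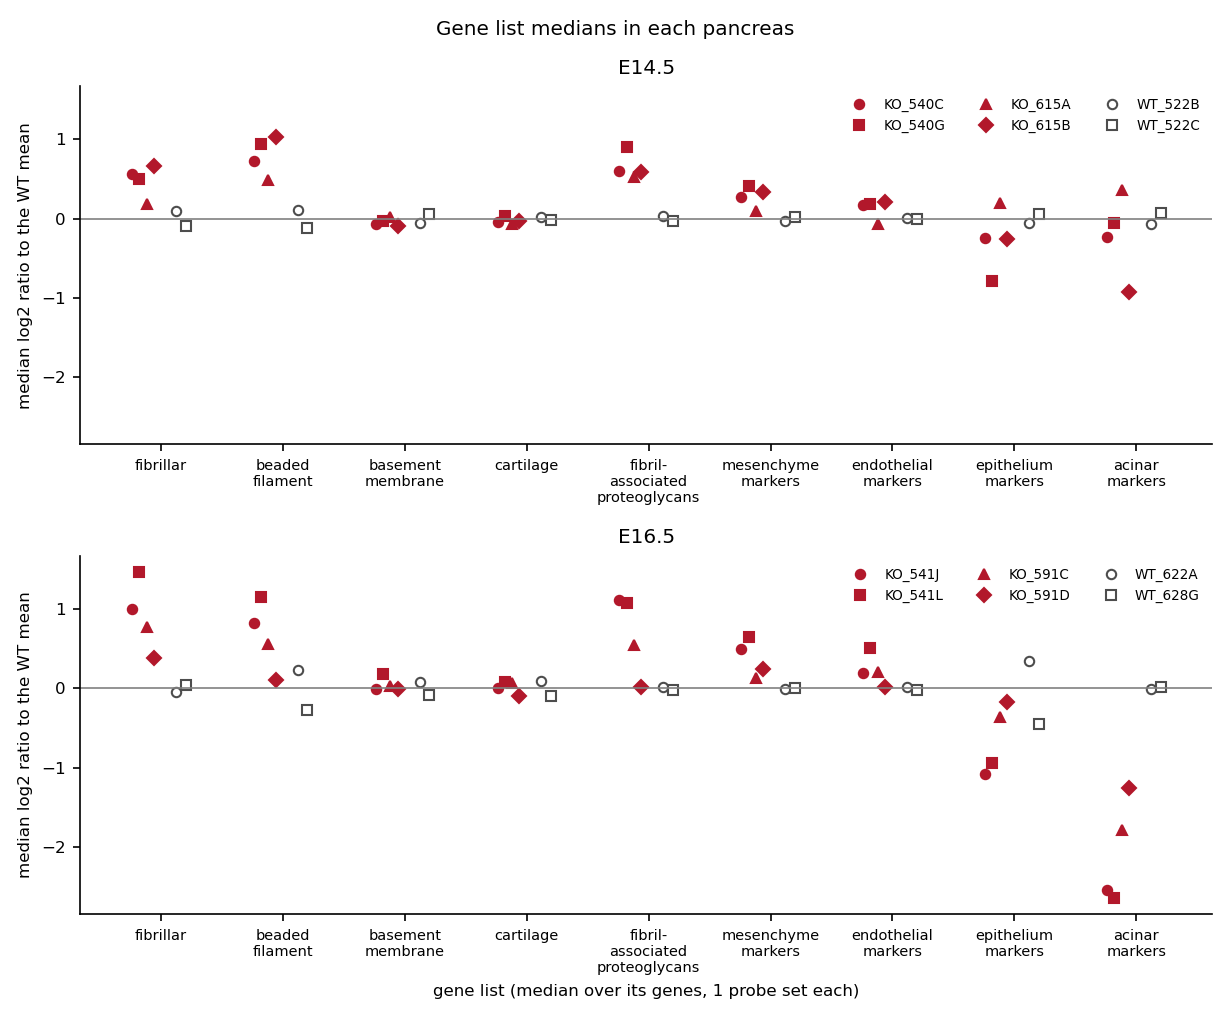
Median log2 ratio to the WT mean of the day (y axis) over the genes of 9 lists (x axis) in each pancreas at E14.5 (top) and E16.5 (bottom), with filled symbols for KO and open symbols for WT. At E16.5 fibrillar, beaded filament and proteoglycan medians are highest in KO_541J and KO_541L and lowest in KO_591D, the acinar medians run the other way, and basement membrane and cartilage medians stay near 0.

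The genes that handle collagen were followed as 6 lists. Fibril-associated proteoglycans and glycoproteins had the highest medians of the 6: all 7 genes had a KO mean above WT on both days, with list medians of 0.54 on the earlier day and 0.76 on the later one. Lum, which spaces collagen fibrils, read 3.58, 3.22, 2.76 and 1.96 in KO at E16.5, against 0.828 and 1.17 in WT (1.51 ± 0.27, adjusted p = 0.0160). Dcn, decorin, read 4.54, 4.12, 2.12 and 1.70 on 1449368_at in KO and 0.832 and 1.17 in WT (1.54 ± 0.35, adjusted p = 0.0430), but its other probe set did not pass (0.23 ± 0.24). At E14.5 Lum read 1.91, 2.56, 2.40 and 2.05 in KO and 1.28 and 0.719 in WT and did not pass (adjusted p = 0.405). The call of Lum was lost without WT_622A (adjusted p = 0.121), and that of Dcn in 8 of 12 fits with 1 array left out.

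Of 13 measured enzymes and chaperones that modify new collagen chains, Crtap rose and Ppib fell. Both belong to the complex that hydroxylates single prolines of collagen. Crtap, the cartilage-associated protein, read 2.00, 2.08, 1.71 and 1.41 in KO at E16.5, against 1.17 and 0.826 in WT (0.86 ± 0.18, adjusted p = 0.0301). Ppib, cyclophilin B, which also serves in secretion of other proteins, read 0.602, 0.525, 0.630 and 0.726 in KO and 0.885 and 1.11 in WT on 1450911_at (-0.69 ± 0.14, adjusted p = 0.0301), and -0.73 ± 0.17 on 1437649_x_at (adjusted p = 0.0442). The third member of that complex, P3h1, differed by 0.49 and did not pass. With 1 array left out the calls of Crtap and of Ppib on 1450911_at were lost in 6 and 7 of 12 fits. P4ha1, a prolyl hydroxylase subunit, and Serpinh1, the collagen chaperone, differed by 0.17 ± 0.15 and 0.45 ± 0.37 and did not pass, and without WT_628G the Serpinh1 estimate turned to -0.22.

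Genes that process and cross-link collagen had no call among 9 measured genes. Lox, the lysyl oxidase that cross-links fibrils, read 2.32, 2.95, 2.12 and 2.10 in KO and 1.10 and 0.897 in WT at E14.5, and 2.52, 3.13, 2.02 and 1.11 in KO and 1.08 and 0.920 in WT at E16.5 (1.24 ± 0.32 and 1.04 ± 0.32, adjusted p = 0.496 and 0.113). Every KO pancreas lay above both WT pancreata on both days, although only just for KO_591D. Bmp1, the procollagen C-proteinase, differed by 0.21 ± 0.15 at E16.5.

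None of 7 measured collagen receptors and none of 9 collagen-degrading proteases and inhibitors passed. Ddr2, a receptor of fibrillar collagen, differed between its probe sets at E16.5, with 0.0046 ± 0.12 on 1422738_at and 0.98 ± 0.34 on 1455688_at, and the sign of 1422738_at turned under some alternatives. Mmp2, gelatinase A, read 2.83, 3.35, 1.70 and 1.04 in KO and 1.25 and 0.747 in WT at E16.5 (1.06 ± 0.39, adjusted p = 0.184), once more with KO_591D within the WT range. Among 10 basement membrane partners none passed, and Hspg2, perlecan, read 1.28, 1.29, 1.21 and 1.28 in KO and 1.01 and 0.989 in WT at E16.5 (0.34 ± 0.11, adjusted p = 0.132). The laminin chain genes of that list ran in both directions at E16.5, from -0.74 for Lamc1 to 0.49 for Lama2.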

How the data were processed

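RNA from 12 whole embryonic pancreata was amplified in 2 rounds and hybridised to Affymetrix MOE430 2.0 arrays, 1 pancreas per array. The authors normalised the signals by RMA and deposited, for each probe set, its ratio to the average wildtype signal on that day, and no value here goes back before that step. The 2 wildtype ratios of a day sum to 2 on every probe set within 3e-07, so spread within the wildtype pair is mirrored and rests on 1 free value. Array intensities and detection calls were not analysed here, so signal over background is unknown and the number of arrays limits the precision.

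The ratios were set to log2 and fitted with limma 3.58.1 in R 4.3.3, with 4 groups (day by genotype) that share 1 estimate of the spread per probe set (8 residual degrees of freedom). Contrasts were KO minus WT at E14.5, the same at E16.5, and the difference between these effects, and p-values were adjusted by Benjamini-Hochberg over 45037 probe sets (45101 less 64 controls) with a limit of 0.05. Arrays count as replicates because they come from separate embryos, although litters are not given. Probe sets took their gene from the platform annotation: 34945 had 1 symbol, 932 several and 9160 none, and a gene was read only from probe sets with 1 symbol. For 1 value per gene the probe set was chosen by its name (plain _at names first, then the lowest number). Values per pancreas are given for collagen genes past the limit, those on the same side of WT on both days, the 3 largest changes in each direction and day, and the leading chains of each type. The collagen genes, the lists and the markers were chosen with earlier results of these data known. The script was tested on simulated data. The alternatives were quantile normalization, median centring, trended and robust variance, single-day fits and array weights. Further ones were a random block by the number in the array name, other choices of probe sets, and each array left out. The methods' t-test was also run, over all probe sets and without the paper's filter. Promoter windows came from RefSeq on GRCm38.p6, and plots were made in matplotlib 3.10.9.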

Additional observations from a re-analysis of the deposited data

Results flagged for a closer look

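Col8a1 on 1455627_at differed between the days: its KO effect at E16.5 exceeded that at E14.5 by 1.78 on the log2 scale (limma, adjusted p = 0.0344 over all probe sets), with every KO pancreas above WT at E16.5 and below WT at E14.5. Among the groups of 4 KO pancreata of the genes described, a single pancreas stood far from the other 3 in 5 of 82 groups, and about 4.1 would be flagged by chance at 1 in 20. KO_591D was low on Col9a3 (1460734_at, ratio 0.81) and high on Col25a1 (1421427_at, 1.27) at E16.5. KO_540G was high on Ddr2 (1422738_at, 1.54) and KO_615A low on Mmp2 (1416136_at, 1.26) at E14.5. KO_591C was low on Hspg2 (1418669_at, 1.21) at E16.5.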

How the results depend on the processing

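Depth and signal over background are unknown, each day has 2 WT pancreata, and the WT pair is fixed to a mean of 1, so the counts of calls rest on few arrays. No paired analysis was possible because the replicate numbers were given in accession order and pair no pancreata. With the number in the array name as a random block (7 blocks, consensus correlation -0.088) the same 7 probe sets passed at E16.5. Over all probe sets this fit called 1377 at E16.5, against 1182 in the main fit. No number is shared by KO and WT arrays, so the fit cannot separate genotype from whatever the number stands for.

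The count of collagen probe sets past the limit at E14.5 (0) became 1 with quantile normalization and 1 with array weights, each time Col9a1 on 1428571_at, lower in KO, and 14 by the methods' t-test without correction. The count at E16.5 (7) became 1 with quantile normalization (Col5a1), 3 with median centring (Col5a1, Col1a2 and Col8a1), 1 with trended and robust variance (Col8a1), 0 with each day fitted on its own 6 arrays, 10 with array weights, 14 by the methods' t-test without correction and 0 by it after Benjamini-Hochberg. It ranged from 0 (without WT_622A) to 13 (without KO_591D) with 1 array left out, and was 1 without WT_628G or KO_541J, 2 without WT_522B or WT_522C, 3 without KO_541L, KO_615A or KO_615B, 4 without KO_540C or KO_591C and 5 without KO_540G. Over all probe sets the E16.5 count of 1182 became 71 with quantile normalization and 86 with trended and robust variance, and that at E14.5 (5) became 9 and 0. With array weights they were 2380 and 30, and with each day fitted on its own arrays 159 and 14. By the methods' t-test without correction they were 5539 and 2269 of 45037, and of its 14 collagen probe sets at E16.5, 13 were higher in KO and 1 lower. Without KO_591D the E16.5 count over all probe sets was 2862. The count for the difference between days (1) became 0 with quantile normalization, median centring, and trended and robust variance, and ranged from 0 to 1 with 1 array left out. The cause was not tested.

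Fibrillar medians stayed above 0 throughout, from 0.37 to 0.72 at E14.5 and from 0.73 to 1.11 at E16.5 with 1 array left out. At E16.5 (0.93) they were 0.57 with quantile normalization, 0.54 over all probe sets and 0.64 with the mean over probe sets, and at E14.5 (0.56) they were 0.50, 0.49 and 0.42. The basement membrane median at E14.5 (-0.050) was 0.018 with the mean over probe sets, 0.054 without genes shared between types and -0.052 to 0.0051 with 1 array left out. The cartilage median at E14.5 (-0.0079) was -0.14 over all probe sets and -0.044 to 0.055 with 1 array left out, and that at E16.5 (0.071) was 0.0035 to 0.16.

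Some estimates of single genes changed sign, none of them past the limit on that day. Col2a1 at E14.5 was -0.0023 with quantile normalization, -0.0037 with median centring, -0.013 with array weights and -0.030 to 0.050 with 1 array left out. Ddr2 at E16.5 was -0.0048, -0.0098 and -0.0066 under these settings and -0.11 to 0.12 with 1 array left out. Hspg2 at E14.5 was -0.00083 with array weights and -0.034 (without KO_540G) to 0.10 with 1 array left out. Ppib (1450911_at) at E14.5 was 0.014 with quantile normalization, 0.037 with array weights and -0.051 to 0.055 with 1 array left out. For a further 8 genes the sign turned only when 1 WT array was left out. At E16.5 the range with 1 array left out was -0.16 to 1.02 for Col1a1, -0.070 to 0.34 for Col18a1, -0.22 to 1.12 for Serpinh1, -0.36 to 0.15 for Col4a1 and -0.37 to 0.11 for Col4a2. At E14.5 it was -0.35 to 0.064 for Col9a3, -0.053 to 0.0061 for Col11a2 and -0.10 to 0.0051 for Col7a1.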

Other observations

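Rgs5, a pericyte marker, had a probe set below WT at E14.5 and above WT at E16.5, as had Col8a1 on 1455627_at. On 1420941_at it read 0.175, 0.169, 0.235 and 0.206 in KO and 1.16 and 0.845 in WT at E14.5 (-2.34 ± 0.43, adjusted p = 0.227 by limma), and 4.17, 3.24, 2.26 and 1.96 in KO and 1.58 and 0.424 in WT at E16.5 (1.77 ± 0.43, adjusted p = 0.0528 by limma). The difference between days was 4.11 ± 0.61 (adjusted p = 0.0194). Its other 3 probe sets did not lie that low at E14.5, with log2 fold changes of -0.11, 0.31 and -0.0020. The probe set was picked out after its values were seen.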
